A study of Rattus norvegicus with 9 samples.

Results

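The dual-specificity MAP kinase phosphatases are the enzymes that switch MAP kinases off. The 10 genes described here, Dusp1, Dusp2, Dusp4, Dusp5, Dusp6, Dusp7, Dusp8, Dusp9, Dusp10 and Dusp16, were chosen by gene symbol from a table of 33539 rat genes, and each symbol matched 1 row. Messenger RNA was sequenced from rat MSCs (mesenchymal stem cells of the bone marrow, which can turn into bone, cartilage or fat cells) kept for 48 h in SA hydrogels. There were 3 samples in a gel with fast stress relaxation (Fast), 3 with medium (Medium) and 3 with slow relaxation (Slow). All cells were grown in low glucose DMEM with serum and antibiotics. No sample outside a gel was part of the set, so each comparison is between gels, and the labels give neither the strain nor the age of the rats. Whether the 3 samples of a gel are from different rats or cultures is not stated, so p-values below describe sample-to-sample spread that may be only technical.

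A MAP kinase such as ERK, JNK or p38 is active while a threonine and a tyrosine of its activation loop both carry phosphate. The phosphatases of this family remove both groups. They fall into 3 classes by place and substrate: nuclear enzymes whose genes are themselves induced by growth factors or stress (Dusp1, Dusp2, Dusp4 and Dusp5), cytoplasmic enzymes that prefer ERK (Dusp6, Dusp7 and Dusp9), and enzymes that prefer JNK and p38 (Dusp8, Dusp10 and Dusp16). Transcription of several of them rises with the activity of the kinase they act on, so the family is known as negative feedback on MAP kinase signalling. The kinases themselves are regulated by phosphorylation, which RNA levels do not show.

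The inducible members and the ERK-selective Dusp6 were lower in Fast gels than in both other gels, while the JNK and p38 class did not pass the test in any pair of gels. Of the 9 members with enough counts to test, 6 fell and 0 rose in Fast against Slow, where 42.9% of the 14406 tested genes were called, 21.2% higher and 21.7% lower. The largest fall was that of Dusp5, at log2 -1.85 ± 0.055 (SE), which is 3.61-fold lower. Called means an adjusted p under 0.05 in the quasi-likelihood test of edgeR (Benjamini-Hochberg over all tested genes). Levels of 1 gene across samples are CPM, counts scaled to library size, with TMM factors. Whether groups overlapped is given below only to describe the samples, since the share of all genes without overlap was not counted. In whole tissue or culture RNA, fewer cells of a type and less RNA per cell cannot be told apart.

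The 9 libraries held between 14128980 and 15779328 counts. Markers of the labelled cell type were counted in every group: all 11 stromal markers were tested, 5 rose and 3 fell in Fast against Slow, and their summed level was 22100 to 25400 CPM in Fast, 16900 to 17800 in Medium and 15100 to 15700 in Slow. The gene Col1a1 made up most of this stromal sum, with a Fast mean of 16400 CPM and a Slow mean of 9310, and it rose. Pdgfrb, Pdgfra, Cxcl12 and Vcam1 also rose, while Prrx1 (log2 difference -0.20), Nt5e (-1.65) and Eng (-0.73) fell. Col1a2, Thy1 and Lepr were not called, so the sum does not describe the 11 markers as a set. Markers of macrophages and other myeloid cells were also counted. Of 15 such genes 11 rose and 2 fell in Fast against Slow, with a summed level of 3050 to 3210 CPM in Fast, 2140 to 2150 in Medium and 1830 to 1910 in Slow, and none was at 0. Their part in the results below was not tested. Of 7 lymphocyte markers 1 was tested, Cd2, and Cd3g and Ms4a1 had no count in any library. The 5 endothelial markers in the table summed to 14.5 to 16.6 CPM in Fast, 11.5 to 15.1 in Medium and 11.7 to 14.0 in Slow. The split of all called genes moved with the scaling, from 3049 higher and 3128 lower in Fast against Slow to 4132 and 2216 with library size only, and to 3693 and 2494 with upper quartile factors. In Fast against Medium 2254 were higher and 2496 lower, against 3151 and 1781 with library size only and 2734 and 1990 with upper quartile factors. In Medium against Slow 683 were higher and 802 lower, against 800 and 693 with library size only and 758 and 707 with upper quartile factors. In Medium against the midpoint of Fast and Slow 1037 were higher and 704 lower, against 859 and 964 with library size only. The 6 members that fell in Fast, and Dusp1 and Dusp5 in Medium against Slow, did so under each of these scalings.

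The sequence upstream of the start was searched for motifs because the inducible class is known for stimulus-responsive promoters. It is shown only for the 4 members with a match, which are 3 that fell and Dusp16, which was not called. The 250 bases of Dusp7, which fell, and of Dusp9 held no match and are not shown. Each run is the 250 bases before the start of the RefSeq gene in build GRCr8, written 5′ to 3′ on the gene's strand. Capitals mark the cyclic AMP response element (CRE, TGACGTCA), its core TGACG on either strand, and the CArG box of serum response factor. The Dusp1 window is chr10:17184603-17184852 and that of Dusp5 is chr1:262543524-262543773. The Dusp2 window is chr3:135009386-135009635, all on the plus strand, and that of Dusp16 is chr4:169361509-169361758 on the minus strand.
Dusp1: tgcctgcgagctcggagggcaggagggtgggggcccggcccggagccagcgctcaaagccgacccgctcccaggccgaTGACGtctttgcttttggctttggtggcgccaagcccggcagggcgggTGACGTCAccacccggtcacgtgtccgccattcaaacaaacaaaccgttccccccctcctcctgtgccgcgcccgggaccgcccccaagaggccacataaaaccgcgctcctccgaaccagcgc
Dusp5: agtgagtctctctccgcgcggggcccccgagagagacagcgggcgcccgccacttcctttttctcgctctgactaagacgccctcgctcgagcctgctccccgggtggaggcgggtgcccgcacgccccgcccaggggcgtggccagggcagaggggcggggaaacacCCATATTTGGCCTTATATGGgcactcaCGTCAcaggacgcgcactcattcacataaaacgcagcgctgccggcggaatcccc
Dusp2: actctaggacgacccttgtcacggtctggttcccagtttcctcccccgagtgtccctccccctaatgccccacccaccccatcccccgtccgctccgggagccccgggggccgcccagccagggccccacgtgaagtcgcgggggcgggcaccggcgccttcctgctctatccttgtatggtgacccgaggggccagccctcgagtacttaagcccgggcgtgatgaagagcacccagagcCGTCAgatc
Dusp16: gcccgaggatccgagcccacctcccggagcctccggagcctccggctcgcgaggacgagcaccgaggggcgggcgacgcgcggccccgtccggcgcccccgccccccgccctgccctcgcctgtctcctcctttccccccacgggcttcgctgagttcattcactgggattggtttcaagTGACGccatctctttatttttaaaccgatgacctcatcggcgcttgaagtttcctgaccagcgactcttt

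Motifs were searched on both strands of windows from 250 bases before to 50 after the start, which the RefSeq table held for 9 of the 10 members (not for Dusp4). For Dusp6 only 148 bases of the window lay before the outermost start of the RefSeq gene. The windows of Dusp8 and Dusp10 lay inside the gene. A motif missing from these windows says nothing of the sequence before the gene. Positions are those of the leftmost letter before the start. A full CRE was present in 1 member, Dusp1 at -124, against 1.83% of all 33469 promoters, and it contains the core on both strands. Another core lay at -172 in Dusp1. A CArG box was found in 1 member, Dusp5, with adjoining matches at -82 and -72, against 1.64% of all promoters. The CRE core was present in 4 members (Dusp1, Dusp2, Dusp5 and Dusp16), against 21.2%. The AP-1 letters TGANTCA were in 0 of the 9 windows, against 7.33%. These matches are a description of letters in a window.

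Dusp1 encodes the stress- and growth factor-induced nuclear phosphatase that acts on p38, JNK and ERK, and it was the most abundant member per transcript length. The deposited table places it (ENSRNOG00000003977) on chromosome 10 from 16970626 to 16973418, plus strand, in a build that the sources used here do not settle. Its level was 139, 136 and 136 CPM in the Fast samples, 232, 249 and 238 in Medium and 298, 294 and 295 in Slow. The 3 groups did not overlap and were ordered Fast, Medium, Slow from low to high. Dusp1 fell by 1.11 ± 0.034 on the log2 scale in Fast against Slow (edgeR adjusted p = 2.35e-12), and by 0.81 ± 0.034 in Fast against Medium (1.40e-10). It also fell in Medium against Slow, by 0.30 ± 0.033 (2.40e-05).

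Dusp5 encodes a nuclear phosphatase specific for ERK. The table lists it (ENSRNOG00000014061) on chromosome 1 from 274245184 to 274258595. Dusp5 stood at 22.2, 23.1 and 23.7 CPM in Fast gels, 64.6, 64.0 and 64.6 in Medium and 78.9, 87.4 and 82.9 in Slow. Here too every Fast sample lay under every Medium sample and every Medium sample under every Slow sample. The log2 difference was -1.85 ± 0.055 in Fast against Slow (edgeR adjusted p = 1.82e-12), -1.49 ± 0.056 in Fast against Medium (3.70e-11) and -0.37 ± 0.050 in Medium against Slow (0.000198). Ranked by log2 difference from the lowest among 14406 genes in Fast against Slow, Dusp5 was at place 148.

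Dusp2, first known from activated lymphocytes and a nuclear phosphatase of ERK and p38, was much less abundant. It is listed (ENSRNOG00000013862) on chromosome 3 from 119776925 to 119779099. It had 3.58, 5.13 and 5.62 CPM in Fast, from 55 to 83 counts a library, against 13.5, 14.5 and 13.8 CPM in Medium and 18.8, 15.3 and 15.7 CPM in Slow. The Fast samples were lowest, with Fast replicate 1 the lowest of all. Dusp2 fell by 1.79 ± 0.15 on the log2 scale in Fast against Slow (edgeR adjusted p = 1.47e-07) and by 1.54 ± 0.15 in Fast against Medium (1.21e-06). In Medium against Slow the log2 difference was -0.25 ± 0.13 (0.287) and did not pass. The samples of Medium and Slow did not overlap, which is no test. Of the 15 myeloid markers given above, 11 rose and 2 fell (Cd14 and Itgam) in Fast against Slow. Their relation to Dusp2 was not tested.

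Dusp4 encodes a nuclear phosphatase of ERK and JNK that is closely related to Dusp1, and it had an order of its own. The table gives it (ENSRNOG00000011921) on chromosome 16 from 61078175 to 61091169, minus strand. It stood at 4.04, 5.50 and 4.53 CPM in Fast gels, 15.3, 14.7 and 16.2 in Medium and 11.9, 12.6 and 11 in Slow. Medium was the highest group and no groups overlapped. Dusp4 fell by 1.33 ± 0.13 in Fast against Slow (edgeR adjusted p = 9.32e-07) and by 1.71 ± 0.13 in Fast against Medium (8.01e-08), both on the log2 scale. In Fast against Slow it fell by 0.87 with limma on log2(FPKM + 1), a scale on which the pseudocount shrinks changes of low genes. The difference of Medium from Slow was 0.38 ± 0.12 and did not pass (adjusted p = 0.0574). The authors' deposited table gave -0.38 for Slow over Medium with an adjusted p of 0.0293, and 5 of 20 alternatives run here also called it, with adjusted p between 0.0263 and 0.179 over all of them.

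**Figure D1:**
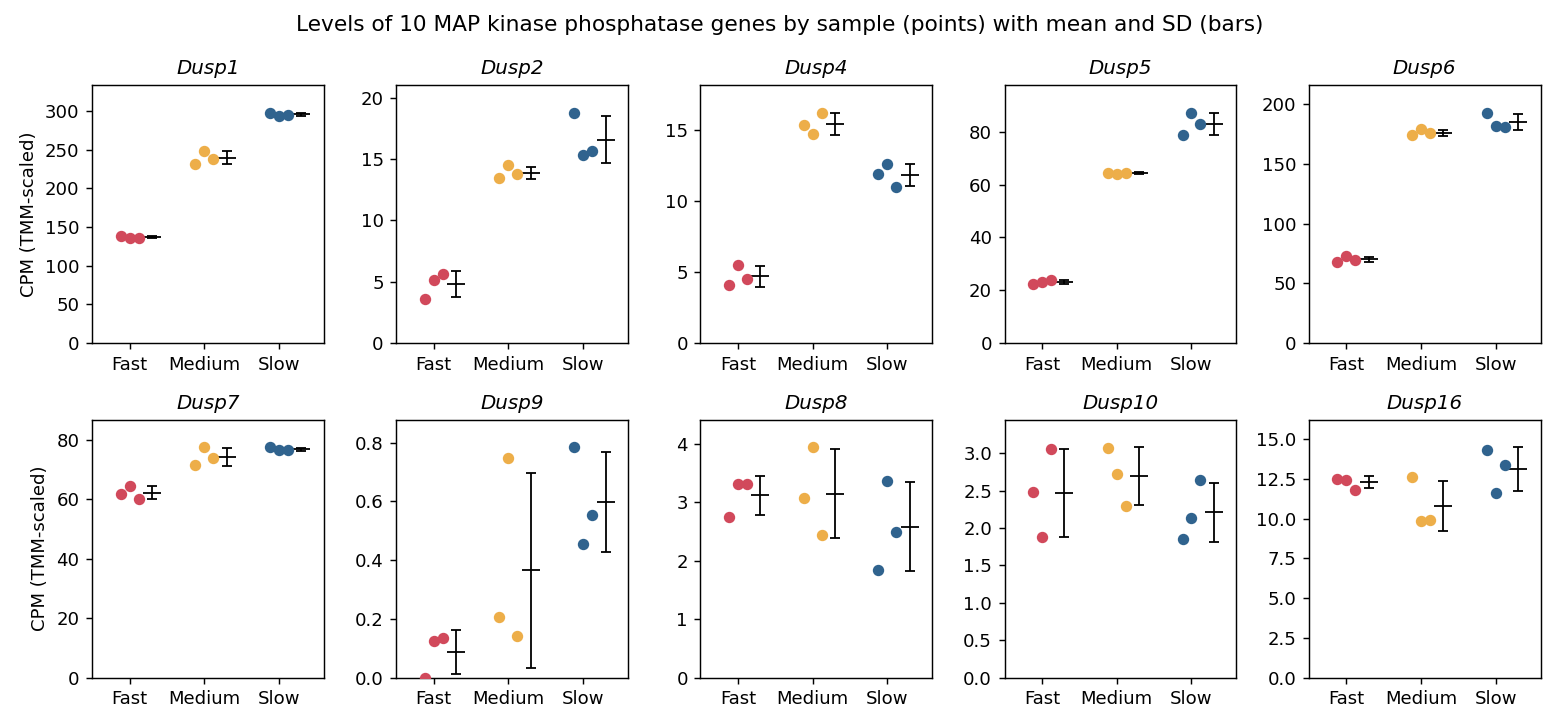
Level of each phosphatase gene in CPM (vertical axis, from 0, scaled per panel) in the 3 Fast, 3 Medium and 3 Slow samples; points are samples and bars are the mean with SD. Fast samples lie lowest for Dusp1, Dusp2, Dusp4, Dusp5, Dusp6 and Dusp7, Dusp4 is highest in Medium, and the groups overlap for Dusp8, Dusp10 and Dusp16.

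Among the cytoplasmic enzymes, Dusp6 encodes the phosphatase that binds and inactivates ERK and is used as a read-out of the pathway. It is listed (ENSRNOG00000023896) on chromosome 7 from 41475163 to 41479392. Dusp6 had 67.8, 72.5 and 69.4 CPM in Fast gels, 174, 179 and 176 in Medium and 193, 182 and 181 in Slow. The Fast samples were far below the others, while Medium and Slow lay close together without overlap. Dusp6 fell by 1.41 ± 0.041 on the log2 scale in Fast against Slow (edgeR adjusted p = 1.39e-12) and fell by 1.33 ± 0.041 in Fast against Medium (4.08e-12). In Medium against Slow the log2 difference was -0.07 ± 0.038 (0.274), with a 95% interval from -0.16 to 0.01.

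Dusp7, the paralogue of Dusp6 with the same preference for ERK, changed far less. It lies (ENSRNOG00000010789) on chromosome 8 from 115069095 to 115076130. Its values were 61.9, 64.6 and 60.2 CPM in Fast gels, 71.6, 77.5 and 73.9 in Medium and 77.5, 76.7 and 76.5 in Slow. Fast was again under both other groups, and Medium and Slow overlapped. Dusp7 fell by 0.30 ± 0.047 in Fast against Slow (edgeR adjusted p = 9.70e-05) and by 0.26 ± 0.047 in Fast against Medium (0.000655) on the log2 scale. Its difference in Medium against Slow was -0.05 ± 0.046 (0.594). It ranked at place 2598 from the lowest in Fast against Slow, where Dusp6 was at 267, Dusp4 at 298 and Dusp1 at 431.

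Dusp9, a further ERK-selective enzyme known from placenta and kidney, was barely counted. It had 0, 2 and 2 counts in Fast gels, 3, 11 and 2 in Medium and 11, 7 and 8 in Slow, with sums of 4 in Fast, 16 in Medium and 26 in Slow. Scaled to CPM, the Fast samples lay under all others, and Medium and Slow overlapped. Fast replicates 2 and 3 and Medium replicate 3 each had 2 counts, however, and only the scaling separates them (0.125, 0.135 and 0.143 CPM). The count of 0 in Fast replicate 1 allows a level of up to 0.196 CPM (3 counts, counting error only). Dusp9 did not pass the filter on low counts and is not among the tested members. With all genes of at least 1 count in the fit, it had an edgeR adjusted p of 0.00626 in Fast against Slow, 0.0925 in Fast against Medium and 0.704 in Medium against Slow. The authors' deposited table gave an adjusted p of 0.042 for Slow against Fast.

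None of the 3 phosphatases of JNK and p38 was called in any pair. They are listed on chromosome 4 from 168472412 to 168517177 (Dusp16, ENSRNOG00000006628), chromosome 1 from 215030429 to 215033460 (Dusp8, ENSRNOG00000029394) and chromosome 13 from 104284660 to 104321455 (Dusp10, ENSRNOG00000004003). Dusp16, the most abundant of the class, acts mainly on JNK and had 12.5, 12.4 and 11.8 CPM in Fast gels, 12.6, 9.84 and 9.90 in Medium and 14.3, 11.6 and 13.4 in Slow. The groups overlapped in all 3 pairs. Its log2 difference in Fast against Slow was -0.09 ± 0.12 (edgeR adjusted p = 0.56), with a 95% interval from -0.35 to 0.16. The difference in Medium against Slow was -0.28 ± 0.12 (adjusted p = 0.178) and that in Fast against Medium 0.19 ± 0.12 (0.271).

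Dusp8 had 2.74, 3.32 and 3.32 CPM in Fast gels, 3.07, 3.94 and 2.44 in Medium and 1.85, 3.37 and 2.50 in Slow. Its log2 difference in Fast against Slow was 0.27 ± 0.26 (edgeR adjusted p = 0.426), with a 95% interval from -0.28 to 0.82. That difference of Dusp8 was 0.0864 without Slow replicate 1 and 0.5183 without Slow replicate 2, neither of them called. Dusp10, which limits JNK and p38 in immune cells, had 2.48, 1.88 and 3.05 CPM in Fast gels, 3.07, 2.72 and 2.29 in Medium and 1.85, 2.14 and 2.64 in Slow. Its log2 difference was 0.15 ± 0.25 (0.66), from -0.39 to 0.70. For both genes the groups overlapped in every pair. In Medium against Slow the log2 differences were 0.29 ± 0.26 for Dusp8 (edgeR adjusted p = 0.571) and 0.28 ± 0.25 for Dusp10 (0.564), and Dusp8 ranged from 0.092 without Medium replicate 2 to 0.5319 without Slow replicate 2, again without a call. In Fast against Medium they were -0.01 ± 0.25 for Dusp8 (0.974) and -0.13 ± 0.25 for Dusp10 (0.73). At 26 to 58 counts a library for Dusp8 and 26 to 45 for Dusp10, changes of the size of that of Dusp7 were not detectable. The intervals in Fast against Slow do not reach the falls of Dusp1, Dusp2, Dusp4, Dusp5 or Dusp6.

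**Figure D2:**
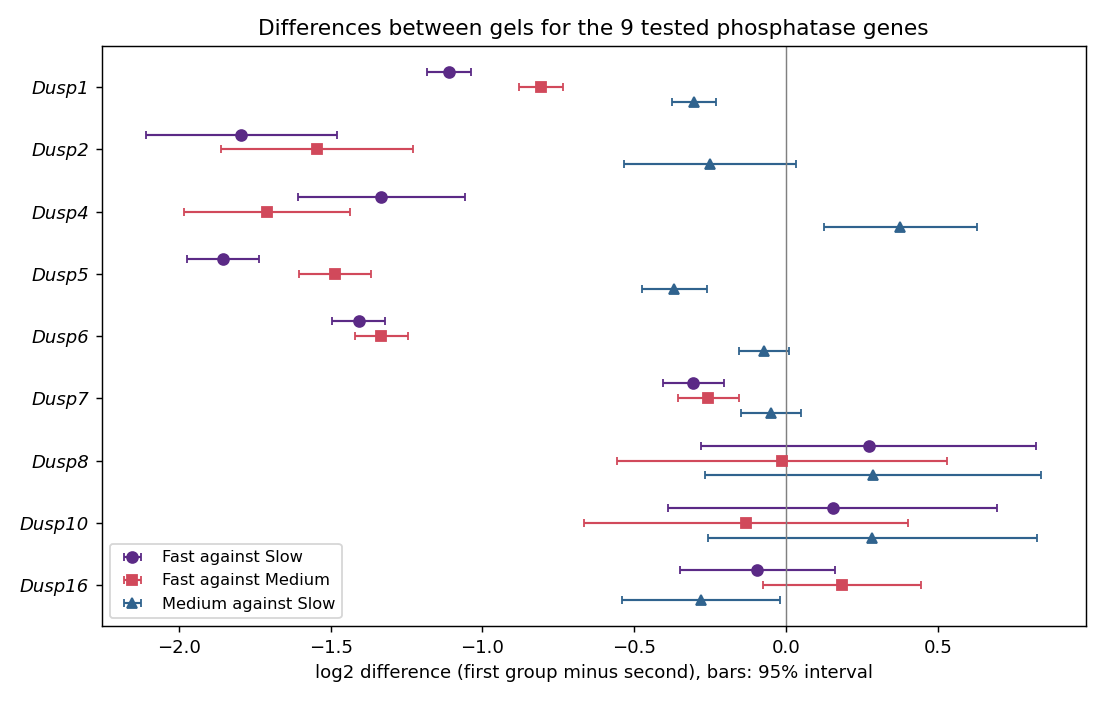
Log2 difference (horizontal axis) of the 9 tested phosphatase genes in Fast against Slow (circles), Fast against Medium (squares) and Medium against Slow (triangles), with 95% intervals that are not adjusted for multiple tests. Dusp5 lies at -1.85, -1.49 and -0.37, while all intervals of Dusp8 and Dusp10 span 0.

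The 3 pairs share samples, so their values are set side by side and are not independent. In Fast against Medium 6 of 9 tested members fell and 0 rose, where 33.0% of all genes were called, 15.6% higher and 17.3% lower. In Medium against Slow 2 fell, Dusp1 and Dusp5, and 0 rose, where 10.3% of all genes were called, 4.74% higher and 5.57% lower. The median log2 difference over the 9 tested members was -1.11 in Fast against Slow, -0.81 in Fast against Medium and -0.07 in Medium against Slow. Over all tested genes the medians were 0.01, 0.01 and 0.00.

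Whether Medium lay midway between the other gels on the log2 scale was tested as well. Of the 9 tested members 5 were above the midpoint of Fast and Slow and 0 below, where 12.1% of all genes were called, 7.20% higher and 4.89% lower. Dusp4 was above it by 1.04 ± 0.10 (edgeR adjusted p = 5.11e-06), Dusp2 by 0.65 ± 0.12 (0.00175) and Dusp6 by 0.63 ± 0.033 (7.46e-09). Dusp5 and Dusp1 were above it by 0.56 ± 0.045 (6.40e-07) and 0.25 ± 0.029 (2.36e-05). Dusp7 was at 0.10 ± 0.040 and did not pass (0.124).

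Levels of different genes were compared in FPKM, which the authors deposited and which scales a count by gene length and library size. The order of the members by mean FPKM over all samples was Dusp1 at 115, Dusp6 at 51.9, Dusp5 at 23.4, Dusp7 at 22.6, Dusp2 at 7.21, Dusp16 at 5.03, Dusp4 at 2.66, Dusp8 at 1.5, Dusp10 at 0.903 and Dusp9 at 0.135. The order of neighbours differed by gel. Dusp5 had 9.44 ± 0.306 FPKM in Fast (SD, n = 3), under Dusp7 at 19.8 ± 0.69, while in Slow Dusp5 had 34.2 ± 1.83 and Dusp7 24.5 ± 0.186. Dusp16 had 5.12 ± 0.149 FPKM in Fast and Dusp2 2.92 ± 0.65, while in Slow Dusp16 had 5.48 ± 0.566 and Dusp2 10.2 ± 1.15.

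The summed level of the 10 members was 136 ± 1.46 FPKM in the Fast samples, 257 ± 6.37 in the Medium samples and 299 ± 3.54 in the Slow samples (SD, n = 3). Dusp1 made up 51.5 ± 1.06% of that sum in Fast, 48.0 ± 0.597% in Medium and 50.9 ± 0.327% in Slow. The share of Dusp7 was 14.5 ± 0.402% in Fast, against 9.22 ± 0.15% in Medium and 8.20 ± 0.0367% in Slow. The share of Dusp5 ran the other way, at 6.92 ± 0.209% in Fast, 10.3 ± 0.301% in Medium and 11.4 ± 0.689% in Slow. The JNK and p38 class together held 5.57 ± 0.111% in Fast, 2.77 ± 0.367% in Medium and 2.55 ± 0.0903% in Slow. A share moves when any other member moves, and these shares are given without a test.

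**Figure D3:**
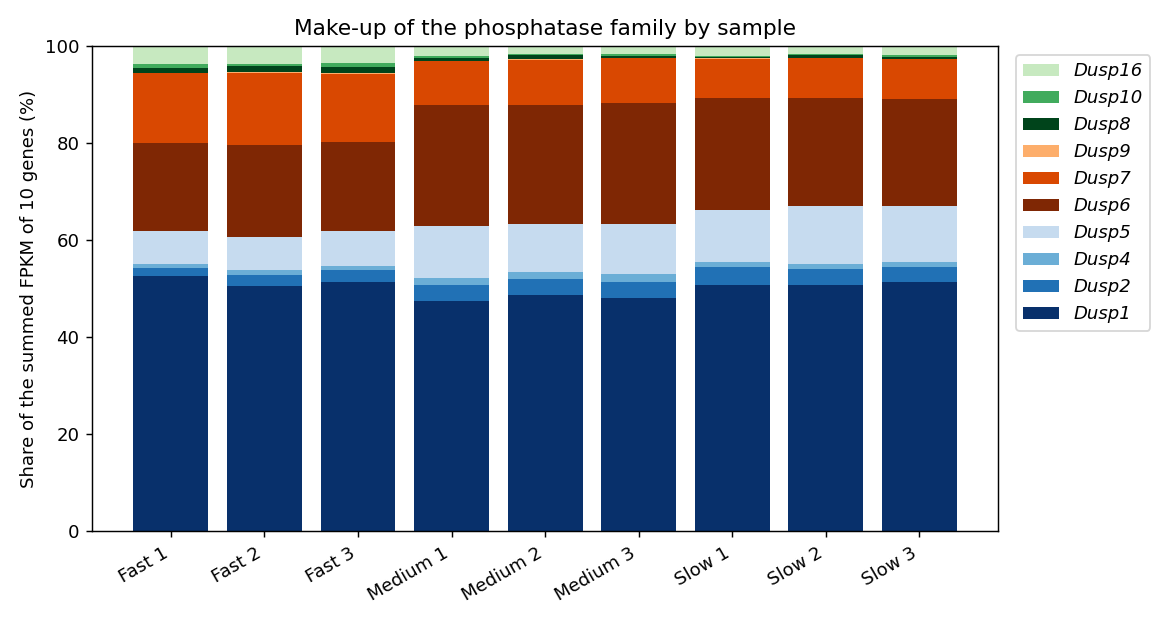
Share of the summed FPKM of the 10 phosphatase genes (vertical axis, percent) in each of the 9 samples, stacked by gene; blue is the nuclear inducible class, orange to brown the cytoplasmic ERK-selective class and green the JNK and p38 class. Dusp1 holds between 47.4% and 52.7% in every sample, and Dusp7 is 14.1% to 14.9% in Fast, against 8.16% to 9.35% in the other gels.

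The genes with the most similar profile were found by the root mean square difference of centred log2 CPM over the 9 samples, among 10424 genes with a mean of at least 50 counts. Nearest to Dusp1 was Plaur, the urokinase receptor gene, at a difference of 0.044, followed by Agpat9 (0.046). Dusp5 was nearest to Scin (0.058), which encodes an actin-severing protein, to the cytokine gene Clcf1 (0.073) and to the aldo-keto reductase gene Akr1b8 (0.087). Dusp6 was nearest to the arginase gene Arg1 (0.036), then Anxa1 (0.063) and Enpp1 (0.064). Those nearest to Dusp2 were Prkar1b (0.096), the growth factor gene Pdgfa (0.121) and Rem2 (0.127). The profile of Dusp4, highest in Medium, was nearest to those of the calcium channel gene Cacna1i (0.068), the early response gene Egr3 (0.112) and the cartilage proteoglycan gene Acan (0.133). Dusp7 was nearest to Rab2a (0.024), Anxa7 (0.030) and Cnbp (0.032).

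The other genes of the MAP kinase pathway were read from lists of kinases, downstream genes and other inhibitors. Counts of called genes in these lists, and in the other phosphatase lists below, stand beside the share over all tested genes. In Fast against Slow that share was 42.9%, with 21.2% higher and 21.7% lower. In Fast against Slow 1 of 9 tested MAP kinase genes rose and 3 fell, with a median log2 difference of 0.01. Library size scaling made 3 rise and 2 fall, and upper quartile factors 2 and 3. The JNK gene Mapk9 fell by 0.38 ± 0.055. Mapk8, another JNK gene, fell by 0.34 ± 0.11, and its call was lost with library size only (adjusted p = 0.069). The ERK gene Mapk3 was at 0.01 ± 0.036 (edgeR adjusted p = 0.774), chosen after its value was seen, and was called higher with library size only (0.10, adjusted p = 0.0331).

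Of 6 tested MAP kinase kinase genes 1 rose and 3 fell (median -0.07), and only 1 fell with upper quartile factors or library size only. The ERK activator gene Map2k1 fell by 0.22 ± 0.037, and the p38 activator gene Map2k6 rose by 1.58 ± 0.40, at 2.34 ± 0.324 CPM in Fast and 0.772 ± 0.519 in Slow. Map2k4 fell by 0.23 ± 0.080, a call lost under both of those scalings (adjusted p = 0.0854 and 0.148). Of 13 RAS, RAF and MAP3 kinase genes 1 rose and 4 fell (median -0.09), and 2 rose with library size only. Among those that fell were Map3k2 (-0.66 ± 0.078) and Map3k5 (-0.56 ± 0.10). Of 10 genes of kinases activated by MAP kinases 5 rose and 3 fell (median 0.11), or 2 fell with upper quartile factors or library size only, with Rps6ka2 at -0.71 ± 0.072, Mapkapk3 at 0.42 ± 0.064 and Mknk1 at 0.25 ± 0.042.

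Genes of transcription factors that act downstream of MAP kinases, and early response genes, made up another list. Of its 18 tested genes 13 fell, 0 rose and 5 (Elk1, Elk3, Jun, Etv5 and Fosl2, named after their values were seen) were not called in Fast against Slow, with a median log2 difference of -0.82, and these counts were equal under the other 3 scalings. Ier3, an early response gene, fell by 2.12 ± 0.036, Fosl1 by 1.27 ± 0.049 and Egr1 by 1.15 ± 0.036. Of 8 tested genes of Sprouty, Spred and other feedback inhibitors 2 rose and 4 fell (median -0.30). Spry4 and Spry2 fell by 1.44 ± 0.049 and 0.69 ± 0.079, while Errfi1, an inhibitor of the EGF receptor, rose by 0.35 ± 0.029. Spry1, named after its value was seen, also rose, by 0.66 ± 0.10, so the Sprouty genes did not move together.

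Other phosphatase genes were counted in the same way. Of 12 tested genes of the atypical dual-specificity phosphatase group, most of which lack the kinase-binding domain, 3 rose and 2 fell in Fast against Slow. Their median log2 difference was 0.04. Dusp18 fell by 0.38 ± 0.061, while Styxl1 and Dusp19 rose by 0.83 ± 0.20 and 0.64 ± 0.17. No test of the difference between the lists was made. Of the tyrosine phosphatase genes that act on MAP kinases, Ptpn7, which is expressed in blood cells, rose by 0.93 ± 0.10, at 15.8 ± 0.635 CPM in Fast and 8.29 ± 0.489 in Slow (edgeR adjusted p = 3.75e-06). Ptpn5 and Ptprr had 5 and 3 counts over all samples.

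**Figure D4:**
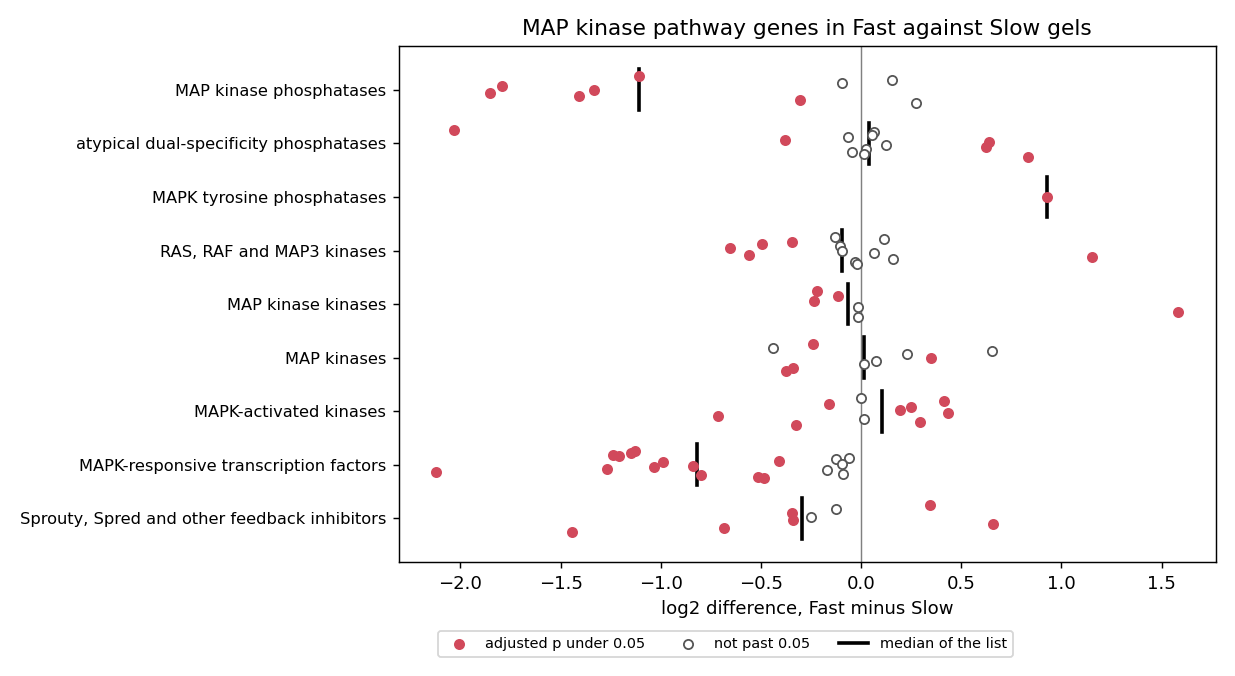
Log2 difference in Fast against Slow (horizontal axis) of each tested gene in 9 lists of MAP kinase pathway genes; filled points were called at an adjusted p under 0.05 and vertical bars are list medians. The MAP kinase phosphatases (median -1.11) and the list labelled MAPK-responsive transcription factors (-0.82) have the lowest medians. Those of the kinase lists lie between -0.09 and 0.11.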

How the data were processed

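RNA of 9 samples was analysed, 3 each of Fast, Medium and Slow, grouped by their titles. The authors deposited 1 table with counts of reads and FPKM values for every gene in every sample, per the file headers. It also holds the authors' log2 fold change and p-value for each pair of groups. The authors' normalized group means were not used. Libraries were prepared from polyA RNA with the QIAseq FX kit of QIAGEN, per the labels' protocols. HTSeq, Cufflinks 2.1.1, Bowtie 0.12.9 and the mouse build mm10 are listed without roles per the submitters' processing notes, while the gene identifiers are rat Ensembl ones. Strand use in counting is not given in the sources used here.

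Genes were filtered with filterByExpr (minimum count 10, smallest group 3), leaving 14406 of 33539 genes and 9 of the 10 members, each with at least 26 counts in every library. TMM factors ranged from 0.9715 to 1.037. All 9 samples entered 1 model of edgeR 4.0.16 (R 4.3.3) with a term per group, the SE being the log2 difference divided by the square root of F. P-values were adjusted over all tested genes. Replicate libraries differed by more than counting noise (chi-square per degree of freedom 2.88 to 6.36). The fit was tested on simulated data first. Alternatives were other scalings, DESeq2 1.42.0, limma-voom (limma 3.58.1), other filters, limma on log2(FPKM + 1) and log2(FPKM + 0.1), a replicate block, only the samples of a pair, and each replicate left out.

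The members and lists were chosen with earlier results of these data known. Named were all members, up to 3 genes of each pathway list with the smallest adjusted p in Fast against Slow, and the 3 nearest genes of each called member (0.5 was added to CPM before logs). Where a symbol had more rows, that with most counts was used. Map3k1, Ier2 and Pecam1 were not analysed here. Some genes that this rule names are not reported here.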

Additional observations from a re-analysis of the deposited data

How the results depend on the processing

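Calls of members were stable for the pairs with Fast. Dusp1, Dusp2, Dusp4, Dusp5, Dusp6 and Dusp7 kept direction and call in Fast against Slow and in Fast against Medium under all 20 alternatives, with Dusp7 between -0.33 and -0.22 and Dusp5 between -1.89 and -1.75 in Fast against Slow. The number of members called ranged from 6 to 7 in Fast against Slow, 7 with all genes of at least 1 count, which adds Dusp9. In Medium against Slow it ranged from 2 to 3. Dusp4 was the added member, called with library size only (adjusted p = 0.0479), limma-voom (0.031), the 6 samples of the pair (0.0263) and without Fast replicate 1 (0.0358) or 2 (0.0402). The number of genes called higher in Medium against Slow was 452 without Medium replicate 2, against 683.

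Members without a call changed sign in some settings. Dusp8 in Fast against Medium (-0.01) was 0.0303 with upper quartile factors, 0.0564 with library size only, 0.0024 with limma-voom and 0.006 with limma on log2(FPKM + 0.1), and with 1 sample left out it ranged from -0.1656 to 0.1821, above 0 without Fast replicate 1 (0.0726) or Medium replicate 2. In Medium against the midpoint Dusp8 ranged from -0.0451, without Medium replicate 2, to 0.302. Dusp10 ranged from -0.0242, without Fast replicate 3, to 0.3182 in Fast against Slow, and from -0.3088 to 0.0336, without Fast replicate 2, in Fast against Medium. The cause was not tested.

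With the replicate block the genes called were 6111, 1397, 4643 and 1699 for Fast against Slow, Medium against Slow, Fast against Medium and Medium against the midpoint, compared with 6177, 1485, 4750 and 1741 without it, and the members called were 6, 2, 6 and 5 in both. The fit of a pair alone gives no midpoint. Same-numbered samples of different groups had correlations of deviations between -0.11 and 0.07 over 11495 genes, and other pairs between -0.12 and 0.13. Of 9 samples 2 correlated best with their own number. With 3 samples a group, these values cannot settle whether the numbers mark a shared animal, culture or day. Depth limits Dusp8, Dusp9 and Dusp10 most.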
